A study of Homo sapiens with 12 samples.

Results

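Cells make cholesterol and fatty acids from the same acetyl-CoA, and the enzymes of both routes are largely switched on together by the sterol regulatory element binding proteins. The 38 genes described here belong to that programme and were read in A375 and SK-MEL-28, established human melanoma cell lines that grow as adherent cultures. They are 18 enzymes of sterol synthesis, 12 of the fatty acid arm, 5 regulators, and 3 genes that move sterol or control its uptake. The 12 act in fatty acid synthesis, elongation, desaturation and activation, except LPIN1, a phosphatidic acid phosphatase grouped with them. Members were taken by gene symbol from the count matrix. The list of symbols uses no measured value as a threshold, but it was drawn up with earlier results of these data known. All 38 were found, each in a single row, among 58307 rows that name a gene. Both lines were given the topoisomerase II poison etoposide, either alone or together with rapamycin, which inhibits the kinase mTOR and induces autophagy. The 4 groups were A375 with etoposide, A375 with etoposide + rapamycin, SK-MEL-28 with etoposide and SK-MEL-28 with etoposide + rapamycin, and each held 3 libraries. Every culture carried etoposide, in medium with fetal bovine serum, so no untreated cells, no cells with rapamycin alone and no lipid-free medium stand beside these groups, and the labels give neither the dose nor the time of either drug. Each line stands for itself and not for melanoma in general. By the study's methods the 3 libraries of a group are biological replicates.

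SREBF1 and SREBF2 encode transcription factors that are made as membrane proteins of the endoplasmic reticulum. When membrane sterol is low, the escort protein SCAP carries them to the Golgi, where proteases release the active part. When sterol is high, the INSIG proteins hold SCAP back. SREBF2 is known mainly for sterol genes and SREBF1 for fatty acid genes, with much overlap. ABCA1 and MYLIP are known targets of the liver X receptors, which respond to oxidised sterols, and SCD and SREBF1 answer to both systems. The mTOR complex that rapamycin inhibits is known to favour the activity of these factors, in part by keeping lipin (LPIN1) out of the nucleus. Counts of mRNA per gene report neither the processing nor the activity of these factors, nor the amount of lipid.

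Values below are CPM, counts scaled to the library total by TMM factors, and a fold change compares etoposide + rapamycin with etoposide unless the cell lines are named. Every adjusted p comes from the quasi-likelihood test of edgeR and was adjusted over all genes tested by the Benjamini-Hochberg method, n = 3 libraries against 3, and a gene passed at an adjusted p under 0.05. Where leaving out a single library changed a call of 1 of the 38, the library is named with the adjusted p of the fit without it in parentheses. All 38 members entered every test. Library totals ran from 28189501 to 32499337 counts. Replicates correlated at 0.985 to 0.987 on log2 CPM, and libraries of the other treatment in the same line at 0.977 to 0.982. The melanocyte lineage was checked with 8 markers, whose summed level was 399 to 658 CPM in A375 and 294 to 549 CPM in SK-MEL-28. In A375, 4 of the 8 stayed under 1 CPM, and in SK-MEL-28 at most 2 did. Leukocyte markers summed to under 1 CPM in every library. The 20 mitosis genes summed to 290.4 to 304 CPM in A375 with etoposide and 414 to 432 CPM with rapamycin added, but to 351 to 376 and 321 to 368 CPM in SK-MEL-28. Their part in the results below was not tested. In RNA of a whole culture, fewer cells of a kind and less RNA per cell cannot be told apart.

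The stretches of DNA upstream of the start sites of 7 members are shown because these genes carry the results below: 5 of them fell with rapamycin in both lines, and SREBF2 and INSIG1 are the factor and the brake of the pathway. They come from the RefSeq promoter table of GRCh38.p14 and read 5′ to 3′ on the strand of the gene. Those of SREBF2, ABCA1 and SCD run up to the start site of the table, and those of HMGCS1, DHCR7, INSIG1 and STARD4 end short of it. Capitals mark a sterol regulatory element (TCACNCCAC), a CACGTG box, or a CCAAT box (ATTGG when it lies on the other strand). HMGCS1 is shown for chr5:43313508-43313582 on the minus strand, DHCR7 for chr11:71448436-71448543 on the minus strand, SREBF2 for chr22:41832955-41833104 on the plus strand, INSIG1 for chr7:155297698-155297777 on the plus strand, STARD4 for chr5:111512591-111512705 on the minus strand, ABCA1 for chr9:104928156-104928305 on the minus strand and SCD for chr10:100346993-100347232 on the plus strand.
HMGCS1: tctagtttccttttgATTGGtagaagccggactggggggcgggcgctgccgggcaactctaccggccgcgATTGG
DHCR7: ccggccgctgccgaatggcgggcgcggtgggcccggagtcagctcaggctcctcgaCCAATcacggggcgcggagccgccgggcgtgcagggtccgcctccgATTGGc
SREBF2: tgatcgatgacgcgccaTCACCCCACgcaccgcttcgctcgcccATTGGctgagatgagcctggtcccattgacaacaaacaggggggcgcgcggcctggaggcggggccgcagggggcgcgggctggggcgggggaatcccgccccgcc
INSIG1: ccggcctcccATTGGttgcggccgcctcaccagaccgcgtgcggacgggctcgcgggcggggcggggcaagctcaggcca
STARD4: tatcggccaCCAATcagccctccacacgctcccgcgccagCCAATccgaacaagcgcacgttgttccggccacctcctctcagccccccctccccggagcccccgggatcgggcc
ABCA1: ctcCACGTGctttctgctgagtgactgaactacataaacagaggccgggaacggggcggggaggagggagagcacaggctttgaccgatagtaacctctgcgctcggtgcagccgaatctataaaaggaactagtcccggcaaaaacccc
SCD: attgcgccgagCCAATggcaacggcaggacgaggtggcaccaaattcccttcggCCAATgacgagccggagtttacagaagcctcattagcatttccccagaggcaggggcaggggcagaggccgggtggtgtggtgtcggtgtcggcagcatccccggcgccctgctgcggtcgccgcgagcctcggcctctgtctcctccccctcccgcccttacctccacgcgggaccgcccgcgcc

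These letters were searched on both strands of windows from 250 bases before to 50 after a start site, which the table holds for 34 of the 38 members (51 windows). The sterol regulatory element, as the exact letters TCACNCCAC, was found in 2 of the 51 windows, in SREBF2 and ACSL1, and in 1.13% of 35116 windows over all genes. Forms that depart from these letters were not searched, so a window without a match may still hold such an element. CACGTG was found in 7 windows, of LSS, SC5D, SCAP, INSIG1, ABCA1 and ELOVL5, and in 7.26% of all windows. The CACGTG of INSIG1 lies outside the stretch printed above. At least 1 CCAAT box was found in 29 member windows, of 25 members, and in 34.6% of all windows. The boxes of HMGCS1, DHCR7, STARD4 and SCD came in pairs within the stretches printed above. A sterol regulatory element can run into a CACGTG box by its last letters, which no member window showed. ACAT2, FDFT1, SQLE and FASN were not matched. A match is a match of letters, and no binding was measured.

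The first question was which of these genes changed when rapamycin was added to etoposide. In A375, 18 of the 38 fell, 3 rose and 17 did not pass, against 13.8% of 18844 genes lower and 14.3% higher, or 28.1% called in all. In SK-MEL-28, 12 fell, 1 rose and 25 did not pass, against 10.1% of 18897 genes lower and 8.83% higher, or 19.0% called in all. The members had a median log2 fold change of -0.20 in A375, where that of all genes was -0.0051, and of -0.10 in SK-MEL-28, where that of all genes was 0.0053. Groups without overlap were found for 21 members that lay lower and 5 that lay higher in A375, against 42.5% of all genes in either direction and 21.1% lower, and for 15 lower and 4 higher in SK-MEL-28, against 35.9% and 18.1%. The 9 genes that fell in both lines were HMGCS1, IDI1, LSS and DHCR7 of sterol synthesis, the regulator SREBF1, the sterol transporters STARD4 and ABCA1, and ACACA and SCD of fatty acid synthesis. They make up 23.7% of the members, against 5.57% of the 18140 genes tested in both lines. In these fits no member rose in both lines and none passed in opposite directions. With DESeq2, which the authors used, TM7SF2 passed as higher in SK-MEL-28 too (adjusted p = 0.0486), and so rose in both lines. FDFT1 then passed as lower in A375 (adjusted p = 0.0454) and as higher in SK-MEL-28. An edgeR fit of all 12 libraries together gave the same calls for TM7SF2 (adjusted p = 0.0495) and FDFT1 (adjusted p = 0.0248). Another 12 passed in A375 alone and 4 in SK-MEL-28 alone, and 13 passed in neither. With the further condition of a fold change over 1.5, 6 members fell in A375 (IDI1, MSMO1, DHCR7, STARD4, ABCA1 and SCD), against 2.80% of all genes, and 4 in SK-MEL-28 (DHCR7, STARD4, ABCA1 and SCD), against 3.14%. No member rose by that rule, where 3.09% of all genes did in A375 and 1.85% did so in SK-MEL-28, and the rule called 5.89% and 4.99% of genes in either direction.

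**Figure D1:**
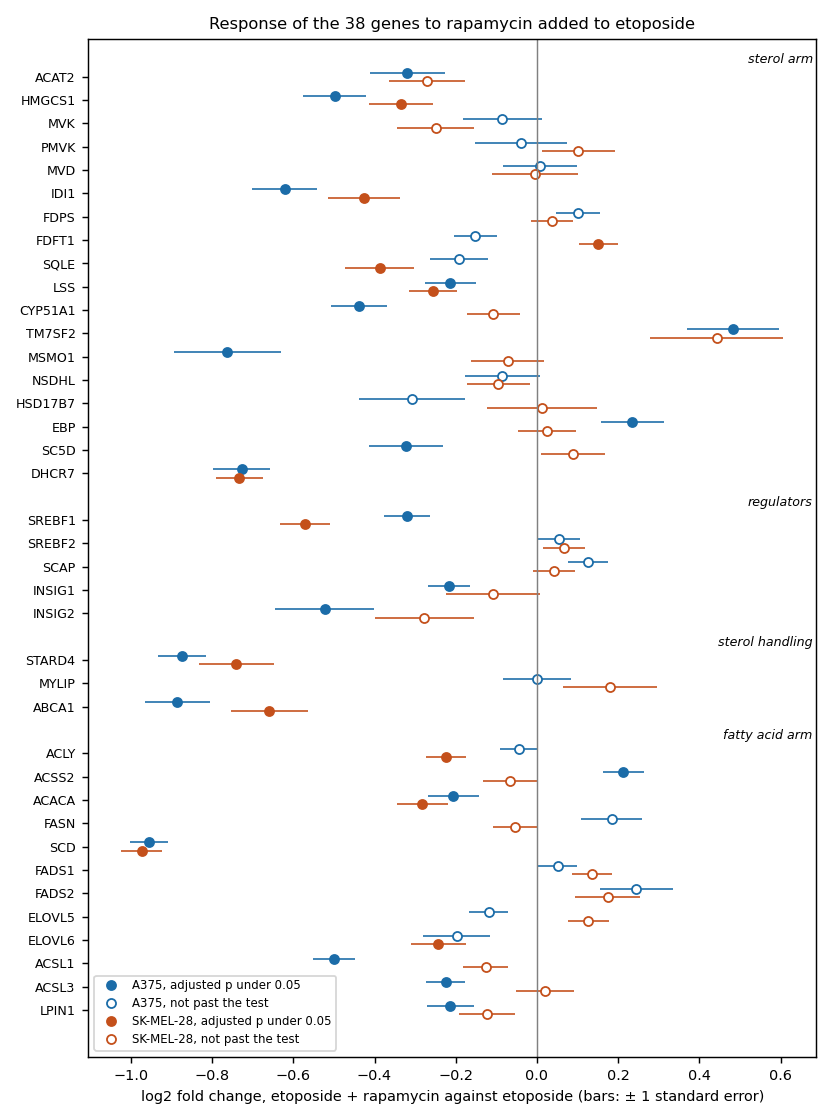
Log2 fold change of each of the 38 genes, etoposide + rapamycin against etoposide, with A375 in blue and SK-MEL-28 in orange, bars of 1 standard error and filled points for an adjusted p under 0.05 (n = 3 libraries a group). SCD, STARD4, ABCA1 and DHCR7 lie far to the left in both lines, with MSMO1 beside them in A375, SREBF2 and SCAP lie near 0, and MSMO1, CYP51A1 and ACSL1 lie lower in A375 than in SK-MEL-28.

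Among the regulators, SREBF1 fell in both lines and SREBF2 passed in neither. SREBF1 lies at chr17:17810399-17837002, minus strand (all gene positions are from GENCODE release 44 on GRCh38). In A375, SREBF1 read 202, 187 and 176 CPM with etoposide and 146, 149 and 158 CPM with etoposide + rapamycin. In SK-MEL-28, SREBF1 read 182, 202 and 201 CPM with etoposide and 141, 124 and 131 CPM with etoposide + rapamycin. The groups did not overlap in either line, and SREBF1 fell by 19.9% in A375 (log2 fold change -0.32 ± 0.056 SE, adjusted p = 0.0011) and fell by 32.7% in SK-MEL-28 (log2 fold change -0.57 ± 0.062 SE, adjusted p = 3.84e-05). A single row holds all SREBF1 transcripts, so its isoforms are not separated. The partner factor SREBF2 lies at chr22:41833105-41907306, plus strand. In A375, SREBF2 read 161, 149.8 and 140.4 CPM with etoposide and 156, 152 and 161 CPM with etoposide + rapamycin. In SK-MEL-28, SREBF2 read 138, 144 and 143 CPM with etoposide and 155, 143 and 148 CPM with etoposide + rapamycin. The groups of SREBF2 overlapped in both lines (log2 fold change 0.053 ± 0.054 SE in A375, adjusted p = 0.514, and 0.067 ± 0.052 SE in SK-MEL-28, adjusted p = 0.421). The escort SCAP lies at chr3:47413681-47477126, minus strand. In A375, SCAP read 112, 105 and 105 CPM with etoposide and 117, 113 and 122 CPM with etoposide + rapamycin. In SK-MEL-28, SCAP read 113, 120.2 and 122 CPM with etoposide and 124, 119.6 and 122 CPM with etoposide + rapamycin. SCAP passed in neither line (log2 fold change 0.13 ± 0.049 SE in A375, adjusted p = 0.0734, and 0.041 ± 0.052 SE in SK-MEL-28, adjusted p = 0.644), and without A375 etoposide replicate 1 (0.0272) it would have passed as higher in A375.

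Both INSIG genes, the brakes on SCAP, fell in A375 and did not pass in SK-MEL-28. INSIG1 lies at chr7:155297776-155310235, plus strand. In A375, INSIG1 read 55.3, 52.7 and 53.0 CPM with etoposide and 46.1, 45.9 and 46.9 CPM with etoposide + rapamycin. The groups did not overlap, and INSIG1 fell by 13.9% (log2 fold change -0.22 ± 0.052 SE, adjusted p = 0.00785). A fit of all 12 libraries together took that call away (adjusted p = 0.0876). In SK-MEL-28, INSIG1 read 21.8, 24.6 and 31.7 CPM with etoposide and 24.6, 23.9 and 24.1 CPM with etoposide + rapamycin. There, etoposide replicate 3 lay above all others, and the groups overlapped (log2 fold change -0.11 ± 0.12 SE, adjusted p = 0.576). Its relative INSIG2 lies at chr2:118088452-118110997, plus strand. In A375, INSIG2 read 9.06, 11.3 and 10.5 CPM with etoposide and 7.03, 7.63 and 6.92 CPM with etoposide + rapamycin. In SK-MEL-28, INSIG2 read 9.13, 8.61 and 9.36 CPM with etoposide and 8.14, 7.75 and 6.54 CPM with etoposide + rapamycin. The groups of INSIG2 did not overlap in either line, and the test passed in A375 but not in SK-MEL-28 (log2 fold change -0.52 ± 0.12 SE in A375, adjusted p = 0.00671, and -0.28 ± 0.12 SE in SK-MEL-28, adjusted p = 0.136). The difference of the INSIG1 and INSIG2 responses between the lines did not pass, with 0.12 (adjusted p = 0.69) and 0.25 (adjusted p = 0.43) on the log2 scale.

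The early steps of sterol synthesis build isoprenoid units from acetyl-CoA. Of the 7 genes from ACAT2 to FDPS, 3 fell in A375 and 2 in SK-MEL-28, against 13.8% and 10.1% of all genes. HMGCS1 (chr5:43287470-43313512, minus strand) joins acetyl-CoA to acetoacetyl-CoA. In A375, HMGCS1 read 38.2, 35.3 and 35.0 CPM with etoposide and 23.8, 25.7 and 27.5 CPM with etoposide + rapamycin. In SK-MEL-28, HMGCS1 read 33.2, 33.6 and 30.9 CPM with etoposide and 23.5, 26.7 and 27.5 CPM with etoposide + rapamycin. HMGCS1 fell by 29.2% in A375 (log2 fold change -0.50 ± 0.078 SE, adjusted p = 0.000522) and fell by 20.7% in SK-MEL-28 (log2 fold change -0.33 ± 0.080 SE, adjusted p = 0.0107), without overlap in either line. IDI1 (chr10:1039152-1049119, minus strand), the isomerase of isopentenyl diphosphate, had the largest fall of these 7 genes in both lines. In A375, IDI1 read 43.3, 41.1 and 45.1 CPM with etoposide and 26.5, 31.3 and 26.5 CPM with etoposide + rapamycin. In SK-MEL-28, IDI1 read 42.7, 37.5 and 35.2 CPM with etoposide and 27.4, 27.0 and 31.7 CPM with etoposide + rapamycin. The groups of IDI1 did not overlap in either line (log2 fold change -0.62 ± 0.080 SE in A375, adjusted p = 0.000127, and -0.43 ± 0.088 SE in SK-MEL-28, adjusted p = 0.00481). ACAT2, which makes acetoacetyl-CoA, fell in A375 (log2 fold change -0.32 ± 0.093 SE, adjusted p = 0.0215) and gave a log2 fold change of -0.27 (adjusted p = 0.0604) in SK-MEL-28. Its A375 call was lost without A375 etoposide + rapamycin replicate 1 (0.0769), A375 etoposide replicate 2 (0.0752) or A375 etoposide replicate 3 (0.0668). The kinases MVK and PMVK, the decarboxylase MVD and the synthase FDPS passed in neither line, with log2 fold changes from -0.25 (MVK in SK-MEL-28) to 0.10 (PMVK in SK-MEL-28).

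From squalene synthase on, 11 enzymes make squalene, close it to the sterol ring and trim the ring. Of these, 5 fell and 2 rose in A375, against 13.8% and 14.3% of all genes. In SK-MEL-28, 3 fell and 1 rose, against 10.1% and 8.83%. DHCR7 (chr11:71428193-71452868, minus strand) is a reductase of the last steps to cholesterol. In A375, DHCR7 read 66.2, 58.9 and 65.8 CPM with etoposide and 39.9, 34.7 and 40.9 CPM with etoposide + rapamycin. In SK-MEL-28, DHCR7 read 60.5, 61.8 and 60.3 CPM with etoposide and 38.1, 34.5 and 37.4 CPM with etoposide + rapamycin. Every library with rapamycin lay below every library without it in both lines, and DHCR7 fell by 39.6% in A375 (log2 fold change -0.73 ± 0.071 SE, adjusted p = 1.56e-05) and fell by 39.8% in SK-MEL-28 (log2 fold change -0.73 ± 0.058 SE, adjusted p = 2.97e-06). LSS (chr21:46188141-46228824, minus strand) closes the ring to lanosterol. In A375, LSS read 71.4, 75.5 and 64.6 CPM with etoposide and 59.4, 60.0 and 63.5 CPM with etoposide + rapamycin. In SK-MEL-28, LSS read 55.8, 53.8 and 56.1 CPM with etoposide and 45.1, 44.6 and 49.4 CPM with etoposide + rapamycin. The groups of LSS did not overlap, and both falls passed (log2 fold change -0.21 ± 0.062 SE in A375, adjusted p = 0.0217, and -0.26 ± 0.059 SE in SK-MEL-28, adjusted p = 0.00846). The A375 call was lost without A375 etoposide + rapamycin replicate 1 (0.0877), A375 etoposide + rapamycin replicate 2 (0.0718) or A375 etoposide replicate 2 (0.0937).

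SQLE, the epoxidase that begins the oxygen-dependent steps, fell in SK-MEL-28 (log2 fold change -0.39 ± 0.085 SE, adjusted p = 0.00649) and gave a log2 fold change of -0.19 (adjusted p = 0.0636) in A375, with no overlap between groups in either line. The A375 value passed without A375 etoposide replicate 1 (0.0217). CYP51A1, MSMO1 and SC5D fell in A375 alone and are described with the difference between the lines. TM7SF2, a sterol reductase, rose in A375 (log2 fold change 0.48 ± 0.11 SE, adjusted p = 0.00677) and gave a log2 fold change of 0.44 (adjusted p = 0.0804) in SK-MEL-28, which passed without SK-MEL-28 etoposide + rapamycin replicate 1 (0.0154). Its row shares a locus with VPS51, which had 2351 counts a library on average against 295 for TM7SF2, so how the authors' counting divided reads bears on it. The sterol isomerase EBP rose in A375 (log2 fold change 0.23 ± 0.077 SE, adjusted p = 0.039), a call lost without A375 etoposide + rapamycin replicate 1 (0.0575), A375 etoposide + rapamycin replicate 2 (0.0775), A375 etoposide + rapamycin replicate 3 (0.137) or A375 etoposide replicate 1 (0.125). FDFT1, which makes squalene, rose in SK-MEL-28 (log2 fold change 0.15 ± 0.048 SE, adjusted p = 0.0422), a call lost without any 1 of the 6 libraries (adjusted p from 0.0565 to 0.124). NSDHL, a sterol C4 decarboxylase, and HSD17B7, a 3-keto sterol reductase, passed in neither line.

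Both sterol transporters fell in both lines, and MYLIP passed in neither. STARD4 (chr5:111496033-111512590, minus strand) carries cholesterol through the cytosol. In A375, STARD4 read 57.0, 56.8 and 55.1 CPM with etoposide and 30.2, 32.4 and 29.8 CPM with etoposide + rapamycin. In SK-MEL-28, STARD4 read 38.7, 34.7 and 41.5 CPM with etoposide and 25.7, 21.6 and 21.7 CPM with etoposide + rapamycin. The groups did not overlap in either line, and STARD4 fell by 45.4% (log2 fold change -0.87 ± 0.059 SE, adjusted p = 8.79e-07) and fell by 40.2% (log2 fold change -0.74 ± 0.092 SE, adjusted p = 0.000113), respectively. ABCA1 (chr9:104781006-104928155, minus strand) exports cholesterol from the cell. In A375, ABCA1 read 45.0, 37.7 and 41.3 CPM with etoposide and 21.7, 22.2 and 23.4 CPM with etoposide + rapamycin. In SK-MEL-28, ABCA1 read 37.4, 31.5 and 34.6 CPM with etoposide and 19.6, 24.2 and 21.9 CPM with etoposide + rapamycin. Again no groups overlapped, and ABCA1 fell by 45.9% in A375 (log2 fold change -0.89 ± 0.080 SE, adjusted p = 8.56e-06) and fell by 36.7% in SK-MEL-28 (log2 fold change -0.66 ± 0.094 SE, adjusted p = 0.00034). MYLIP (chr6:16129086-16148248, plus strand) is a ubiquitin ligase that lowers lipoprotein uptake and, like ABCA1, a target of the liver X receptors. In A375, MYLIP read 21.3, 20.4 and 18.7 CPM with etoposide and 20.4, 20.2 and 20.0 CPM with etoposide + rapamycin. In SK-MEL-28, MYLIP read 14.4, 12.0 and 11.6 CPM with etoposide and 15.0, 12.7 and 15.4 CPM with etoposide + rapamycin. The groups of MYLIP overlapped in both lines (log2 fold change -0.00034 ± 0.084 SE in A375, adjusted p = 0.998, and 0.18 ± 0.12 SE in SK-MEL-28, adjusted p = 0.321).

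In the fatty acid arm, 5 of 12 genes fell and 1 rose in A375, against 13.8% and 14.3% of all genes. In SK-MEL-28, 4 fell and none rose, against 10.1% and 8.83%. SCD (chr10:100347233-100364826, plus strand), the desaturase that makes oleate from stearate, had the largest fall of all 38 genes in both lines. In A375, SCD read 259, 238 and 248 CPM with etoposide and 131, 129 and 125 CPM with etoposide + rapamycin. In SK-MEL-28, SCD read 276, 266 and 267 CPM with etoposide and 140.3, 132 and 140.4 CPM with etoposide + rapamycin. The highest library with rapamycin lay far below the lowest without it in both lines, and SCD fell by 48.5% in A375 (log2 fold change -0.96 ± 0.047 SE, adjusted p = 9.26e-08) and fell by 49.1% in SK-MEL-28 (log2 fold change -0.97 ± 0.050 SE, adjusted p = 9.04e-08). ACACA (chr17:37084992-37406836, minus strand) is the carboxylase that commits carbon to fatty acids. In A375, ACACA read 77.5, 71.2 and 65.8 CPM with etoposide and 60.1, 65.1 and 61.3 CPM with etoposide + rapamycin. In SK-MEL-28, ACACA read 111, 111 and 104 CPM with etoposide and 97.5, 82.4 and 89.3 CPM with etoposide + rapamycin. The falls of ACACA were small and without overlap (log2 fold change -0.21 ± 0.064 SE in A375, adjusted p = 0.0289, and -0.28 ± 0.063 SE in SK-MEL-28, adjusted p = 0.00755), and the A375 call was lost without A375 etoposide + rapamycin replicate 1 (0.112), A375 etoposide + rapamycin replicate 3 (0.0997), A375 etoposide replicate 1 (0.093) or A375 etoposide replicate 2 (0.0638).

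FASN, the synthase that ACACA feeds, passed in neither line. In A375, FASN read 521, 448 and 407 CPM with etoposide and 502, 511 and 554 CPM with etoposide + rapamycin. In SK-MEL-28, FASN read 639.9, 689.6 and 676 CPM with etoposide and 679.7, 597 and 659 CPM with etoposide + rapamycin. The groups of FASN overlapped in both lines (log2 fold change 0.18 ± 0.075 SE in A375, adjusted p = 0.0872, and -0.055 ± 0.054 SE in SK-MEL-28, adjusted p = 0.537). Without A375 etoposide replicate 1 (0.0023), the library with the highest FASN level of its group, FASN passed as higher in A375 and as responding lower in SK-MEL-28 than in A375 (0.0211). FASN is named with its libraries because its values stood out after they were seen. ACLY, which makes cytosolic acetyl-CoA from citrate, fell in SK-MEL-28 (log2 fold change -0.22 ± 0.050 SE, adjusted p = 0.00758) and gave a log2 fold change of -0.045 (adjusted p = 0.509) in A375. ACSS2, which makes it from acetate, rose in A375 (log2 fold change 0.21 ± 0.051 SE, adjusted p = 0.00739) and gave a log2 fold change of -0.067 (adjusted p = 0.54) in SK-MEL-28. The elongase ELOVL6 fell in SK-MEL-28 (log2 fold change -0.24 ± 0.068 SE, adjusted p = 0.0249), a call lost without SK-MEL-28 etoposide + rapamycin replicate 1 (0.0793), SK-MEL-28 etoposide + rapamycin replicate 3 (0.0905), SK-MEL-28 etoposide replicate 1 (0.0832) or SK-MEL-28 etoposide replicate 3 (0.0762). In A375 it gave a log2 fold change of -0.20 (adjusted p = 0.0962), which passed without A375 etoposide replicate 1 (0.0494). The desaturases of polyunsaturated fatty acids passed in neither line, with log2 fold changes of 0.051 (adjusted p = 0.473) and 0.14 (adjusted p = 0.0794) for FADS1 and 0.25 (adjusted p = 0.0601) and 0.17 (adjusted p = 0.154) for FADS2 in A375 and SK-MEL-28. FADS2 shares a locus with FEN1 in the count table, and it passed as higher in A375 without A375 etoposide replicate 2 (0.0155). All 3 genes that activate fatty acids or turn phosphatidate over fell in A375: ACSL1, ACSL3 (log2 fold change -0.22 ± 0.047 SE, adjusted p = 0.00371) and LPIN1 (log2 fold change -0.21 ± 0.058 SE, adjusted p = 0.0156), of which LPIN1 was not called without A375 etoposide + rapamycin replicate 1 (0.0542), A375 etoposide + rapamycin replicate 3 (0.0535) or A375 etoposide replicate 1 (0.0527). None of the 3 passed in SK-MEL-28.

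**Figure D2:**
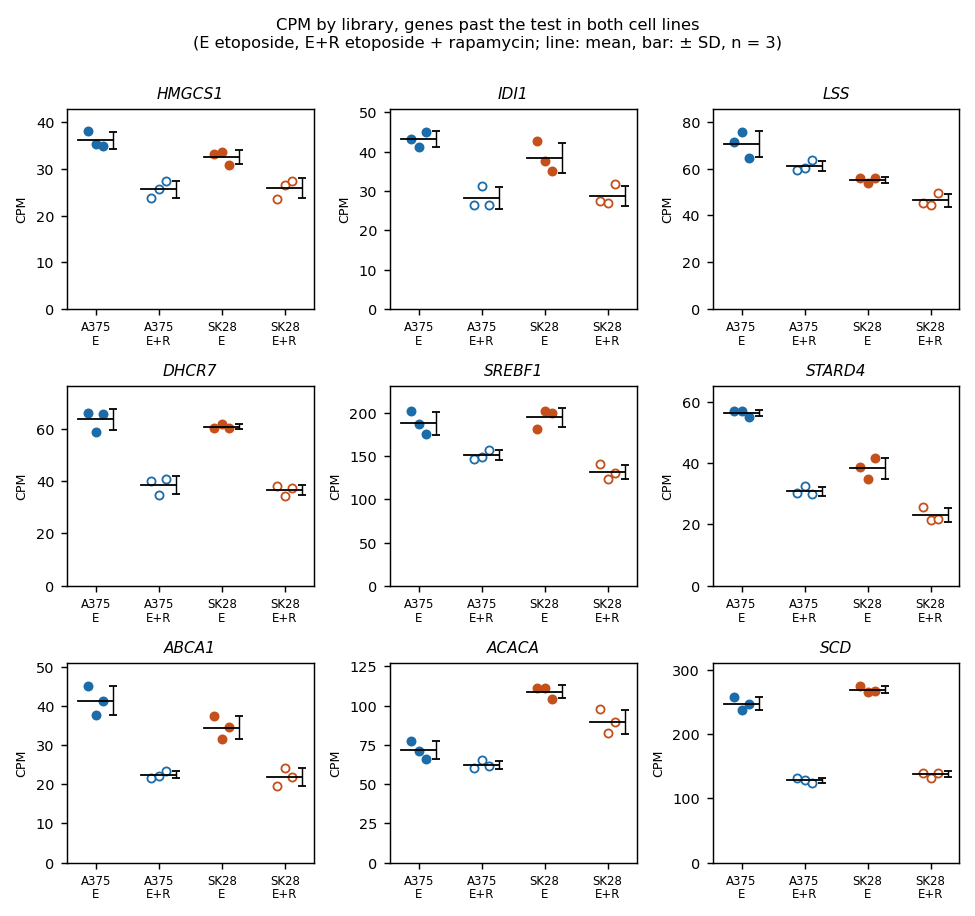
CPM in each library (points) of the 9 genes that passed in both cell lines, with the group mean (line) and SD (bar), n = 3 a group; filled points are etoposide (E), open points etoposide + rapamycin (E+R), and SK28 is SK-MEL-28. In each panel the open points of a line lie below its filled points, with wide gaps for DHCR7, STARD4, ABCA1 and SCD and narrow ones for LSS and ACACA.

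The sterol arm was compared with the fatty acid arm by counts and medians, without a test, since genes are not replicates. In A375, 8 of 18 sterol genes fell and 2 rose, and 5 of 12 fatty acid genes fell and 1 rose. Of all genes tested there, 13.8% fell and 14.3% rose. The medians of the sterol and fatty acid genes were -0.20 and -0.16, a difference of -0.044. Single libraries of a group varied in this difference with an SD of 0.036, which does not measure the spread between genes. In SK-MEL-28, 5 of 18 sterol genes fell and 1 rose, and 4 of 12 fatty acid genes fell, with medians of -0.084 and -0.095 and a difference of 0.012. The shares of all genes tested in this line were 10.1% lower and 8.83% higher. Negative values were seen for 14 of 18 and 8 of 12 genes in A375 and for 11 of 18 and 8 of 12 in SK-MEL-28. Summed over its 18 genes, the sterol arm was 679.9 ± 7.11 CPM (SD, n = 3) with etoposide and 587 ± 5.10 CPM with rapamycin added in A375, and 610.3 ± 4.17 and 563 ± 10.8 CPM in SK-MEL-28. The 12 genes of the fatty acid arm summed to 1856 ± 89.5 and 1713 ± 20.4 CPM in A375, and to 2049.7 ± 11.5 and 1832 ± 88.8 CPM in SK-MEL-28, with no overlap in either arm and either line. SCD alone went from a mean of 248 to 128 CPM in the former and from 269.7 to 138 CPM in the latter line, a large share of the fall of the fatty acid sum. The sum of the fatty acid arm over that of the sterol arm went from 2.73 ± 0.155 to 2.92 ± 0.0101 for A375, while that of SK-MEL-28 went from 3.36 ± 0.0383 to 3.26 ± 0.202, with overlapping libraries in both lines.

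Where the arms are drawn moved this comparison. The fatty acid median in A375 was -0.16 with all 12 genes and -0.045 without ACSL1, ACSL3 and LPIN1, which opened the difference between the arms to -0.16. Within the sterol arm, the median in A375 was -0.086 over the 7 steps to FDPS and -0.21 over the 11 from FDFT1 on, and in SK-MEL-28 the order was the other way, at -0.25 and -0.072. Within the fatty acid arm, the 4 genes from ACLY to FASN gave 0.070 for A375 but -0.15 for SK-MEL-28.

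The next question was whether the response to rapamycin differed between the lines, tested as an interaction over all 12 libraries. Of the 38 members, 6 passed, against 5.62% of 20101 genes, and in each the SK-MEL-28 response was the higher, against 2.66% of all genes. They were FDFT1, CYP51A1, MSMO1 and SC5D of the sterol arm and ELOVL5 and ACSL1 of the fatty acid arm. No member was lower in SK-MEL-28 than in A375 by this test, against 2.97% of all genes. With a fold change over 1.5 added, MSMO1 alone of the members passed, as higher, where 1.62% of all genes did, 0.657% as higher and 0.965% as lower. The count of 6 became 1 without A375 etoposide replicate 3, and 2 or 3 without A375 etoposide + rapamycin replicate 1 or 3, A375 etoposide replicate 2, SK-MEL-28 etoposide + rapamycin replicate 2 or 3, or SK-MEL-28 etoposide replicate 2 or 3. Of the 20 mitosis genes, 8 passed the same test, each with the lower response in SK-MEL-28, and their part in these 6 was not tested. MSMO1 (chr4:165327667-165343164, plus strand), which takes methyl groups off the ring, differed the most. In A375, MSMO1 read 19.2, 21.9 and 21.8 CPM with etoposide and 11.5, 15.3 and 10.4 CPM with etoposide + rapamycin. In SK-MEL-28, MSMO1 read 18.1, 16.0 and 16.5 CPM with etoposide and 16.3, 15.5 and 16.5 CPM with etoposide + rapamycin. MSMO1 fell in A375 without overlap, and its SK-MEL-28 groups overlapped (log2 fold change -0.76 ± 0.13 SE in A375, adjusted p = 0.00102, and -0.072 ± 0.090 SE in SK-MEL-28, adjusted p = 0.637). The difference of the log2 fold changes was 0.70 ± 0.17 (SE, adjusted p = 0.021), and it did not pass without A375 etoposide + rapamycin replicate 1 (0.0561), A375 etoposide + rapamycin replicate 3 (0.0594), A375 etoposide replicate 2 (0.0504), A375 etoposide replicate 3 (0.06), SK-MEL-28 etoposide replicate 2 (0.0617) or SK-MEL-28 etoposide replicate 3 (0.0529).

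CYP51A1 (chr7:92084987-92134803, minus strand) is the demethylase of lanosterol. In A375, CYP51A1 read 45.1, 47.2 and 47.3 CPM with etoposide and 34.9, 36.9 and 31.4 CPM with etoposide + rapamycin. In SK-MEL-28, CYP51A1 read 38.1, 36.5 and 36.7 CPM with etoposide and 33.8, 36.6 and 33.2 CPM with etoposide + rapamycin. It fell in A375 without overlap, and its SK-MEL-28 groups overlapped (log2 fold change -0.44 ± 0.069 SE in A375, adjusted p = 0.000545, and -0.11 ± 0.066 SE in SK-MEL-28, adjusted p = 0.297). The responses of CYP51A1 differed (difference 0.34 ± 0.092 SE, adjusted p = 0.0409). SC5D (chr11:121292681-121313410, plus strand) is a desaturase of late sterols. In A375, SC5D read 26.7, 24.0 and 28.2 CPM with etoposide and 22.8, 21.0 and 19.4 CPM with etoposide + rapamycin. In SK-MEL-28, SC5D read 27.2, 25.8 and 26.0 CPM with etoposide and 25.9, 30.0 and 28.3 CPM with etoposide + rapamycin. It fell in A375 without overlap, with overlapping groups in SK-MEL-28 (log2 fold change -0.32 ± 0.092 SE in A375, adjusted p = 0.0193, and 0.089 ± 0.078 SE in SK-MEL-28, adjusted p = 0.484). The responses of SC5D differed (difference 0.42 ± 0.12 SE, adjusted p = 0.0463). The A375 fall was not called without A375 etoposide + rapamycin replicate 2 (0.0566), A375 etoposide + rapamycin replicate 3 (0.0819) or A375 etoposide replicate 3 (0.0783). FDFT1 lay lower with rapamycin in A375 and higher in SK-MEL-28, without overlap in either line. In A375, FDFT1 read 93.5, 99.5 and 105 CPM with etoposide and 86.7, 89.4 and 92.5 CPM with etoposide + rapamycin. In SK-MEL-28, FDFT1 read 107, 106 and 109.5 CPM with etoposide and 119, 120.1 and 119.7 CPM with etoposide + rapamycin. The A375 response did not pass (log2 fold change -0.15 ± 0.053 SE, adjusted p = 0.0513) and the difference did (difference 0.31 ± 0.069 SE, adjusted p = 0.0142). In A375 the value passed without A375 etoposide replicate 1 (0.0121), and the difference between the lines did not pass without A375 etoposide replicate 3 (0.0512).

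ELOVL5 (chr6:53267398-53349179, minus strand), an elongase of polyunsaturated fatty acids, likewise lay lower with rapamycin in A375 and higher in SK-MEL-28. In A375, ELOVL5 read 66.2, 66.1 and 67.8 CPM with etoposide and 61.3, 62.5 and 60.9 CPM with etoposide + rapamycin. In SK-MEL-28, ELOVL5 read 66.5, 65.0 and 61.3 CPM with etoposide and 69.4, 71.5 and 70.1 CPM with etoposide + rapamycin. Its groups did not overlap, and neither response passed alone (log2 fold change -0.12 ± 0.047 SE in A375, adjusted p = 0.0807, and 0.13 ± 0.050 SE in SK-MEL-28, adjusted p = 0.103), but their difference did (difference 0.25 ± 0.067 SE, adjusted p = 0.0369). ACSL1 (chr4:184755595-184826818, minus strand) activates long-chain fatty acids. In A375, ACSL1 read 119.6, 116 and 125 CPM with etoposide and 84.1, 81.6 and 89.8 CPM with etoposide + rapamycin. In SK-MEL-28, ACSL1 read 73.3, 70.7 and 69.9 CPM with etoposide and 60.9, 67.2 and 68.3 CPM with etoposide + rapamycin. The groups did not overlap in either line, and the fall passed in A375 but not in SK-MEL-28 (log2 fold change -0.50 ± 0.051 SE in A375, adjusted p = 2.18e-05, and -0.13 ± 0.055 SE in SK-MEL-28, adjusted p = 0.137). The difference (0.38 ± 0.078 SE, adjusted p = 0.00857) passed without each of the 12 libraries in turn (largest adjusted p 0.0337). The calls of CYP51A1, SC5D and ELOVL5 were thinner. CYP51A1 kept its call only without A375 etoposide + rapamycin replicate 2, A375 etoposide replicate 1 or SK-MEL-28 etoposide replicate 1, and the other 9 leave-outs gave adjusted p from 0.0564 to 0.111. SC5D kept it only without A375 etoposide + rapamycin replicate 1, A375 etoposide replicate 2 or SK-MEL-28 etoposide + rapamycin replicate 1 (0.0501 to 0.135 for the rest). ELOVL5 kept it only without SK-MEL-28 etoposide replicate 1 or SK-MEL-28 etoposide + rapamycin replicate 1 (0.0507 to 0.0979 for the rest).

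**Figure D3:**
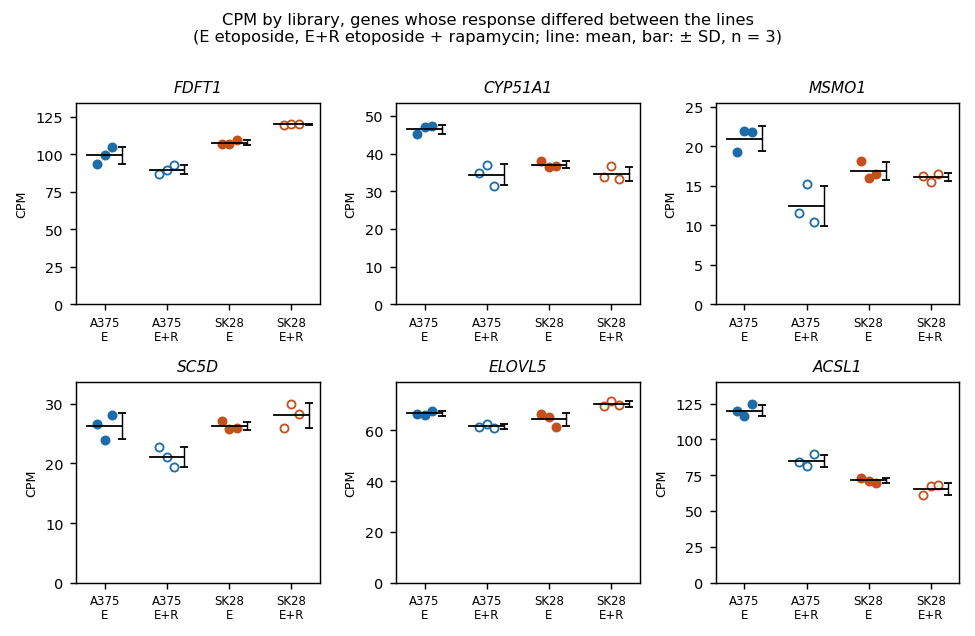
CPM in each library (points) of the 6 genes whose response differed between the cell lines, with the group mean (line) and SD (bar), n = 3 a group; filled points are etoposide (E), open points etoposide + rapamycin (E+R), and SK28 is SK-MEL-28. CYP51A1, MSMO1, SC5D and ACSL1 drop from E to E+R in A375 with a smaller step or none past the test in SK-MEL-28, while FDFT1 and ELOVL5 lie lower with rapamycin in A375 and higher in SK-MEL-28.

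For the 9 genes that fell in both lines, no difference between the lines passed. The values nearest 0 were those of DHCR7 (difference 0.0021 ± 0.094 SE, adjusted p = 0.994) and SCD (difference -0.0091 ± 0.063 SE, adjusted p = 0.958), and the farthest was that of SREBF1 (difference -0.24 ± 0.086 SE, adjusted p = 0.112), which had the lower value in SK-MEL-28. SREBF1 passed this test without A375 etoposide replicate 1 (0.0422).

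The last comparison set SK-MEL-28 against A375 under etoposide alone. Of the 38 members, 14 were lower and 4 higher in SK-MEL-28, against 16.5% of 19025 genes lower and 15.2% higher, or 31.7% called in all. With a fold change over 1.5 added, 4 were lower (INSIG1, ACSL1, MYLIP and PMVK) and 1 higher (ACACA), against 7.32% and 5.70% of all genes, or 13.0% in all. The lines did not overlap for 16 members lower and 7 higher in SK-MEL-28, against 44.7% of all genes in either direction and 22.3% lower. The called genes of the sterol arm were all lower, and those of the fatty acid arm went both ways. Of the sterol arm, 8 of 18 were lower in SK-MEL-28 and none higher, with a median log2 difference of -0.21. Of the fatty acid arm, 2 of 12 were lower and 4 higher, with a median of -0.034. The difference of -0.17 between these medians was not tested. Cell line and anything else that sets the cultures of these lines apart cannot be told apart. INSIG1 differed the most of the 38. It read 55.3, 52.7 and 53.0 CPM in A375 and 21.8, 24.6 and 31.7 CPM in SK-MEL-28 and was lower in SK-MEL-28 (log2 fold change -1.05 ± 0.11 SE, adjusted p = 9.59e-06). ACSL1 came next, at 119.6, 116 and 125 CPM against 73.3, 70.7 and 69.9 CPM (log2 fold change -0.76 ± 0.053 SE, adjusted p = 2.35e-07), and then MYLIP, at 21.3, 20.4 and 18.7 CPM against 14.4, 12.0 and 11.6 CPM (log2 fold change -0.67 ± 0.10 SE, adjusted p = 0.000256). None of these 3 overlapped between the lines. PMVK (log2 fold change -0.65 ± 0.11 SE, adjusted p = 0.000535) and TM7SF2 (log2 fold change -0.56 ± 0.12 SE, adjusted p = 0.00305) led the 8 lower sterol genes, and the other 6 were MVD, FDPS, SQLE, LSS, CYP51A1 and MSMO1. STARD4 (log2 fold change -0.56 ± 0.072 SE, adjusted p = 6.04e-05) and ABCA1 (log2 fold change -0.27 ± 0.084 SE, adjusted p = 0.0276) were lower too, as was ACSL3 (log2 fold change -0.36 ± 0.048 SE, adjusted p = 7.1e-05).

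Higher in SK-MEL-28 were the core enzymes of chain synthesis and 1 elongase. ACACA was at 77.5, 71.2 and 65.8 CPM in A375 and 111, 111 and 104 CPM in SK-MEL-28 (log2 fold change 0.60 ± 0.064 SE, adjusted p = 1.14e-05). FASN was at 521, 448 and 407 CPM and 639.9, 689.6 and 676 CPM (log2 fold change 0.54 ± 0.073 SE, adjusted p = 9.52e-05). ELOVL6 (log2 fold change 0.43 ± 0.076 SE, adjusted p = 0.000723) and ACLY (log2 fold change 0.13 ± 0.045 SE, adjusted p = 0.0495) were higher by less. SREBF1 and SREBF2 did not pass between the lines, with log2 fold changes of 0.045 (adjusted p = 0.625) and -0.092 (adjusted p = 0.244). Some of these calls rested on single libraries. ACLY was not called without A375 etoposide replicate 2 (0.125), A375 etoposide replicate 3 (0.161), SK-MEL-28 etoposide replicate 1 (0.0978), SK-MEL-28 etoposide replicate 2 (0.137) or SK-MEL-28 etoposide replicate 3 (0.0872), and ABCA1 was not called without A375 etoposide replicate 1 (0.101), A375 etoposide replicate 3 (0.0661), SK-MEL-28 etoposide replicate 2 (0.134) or SK-MEL-28 etoposide replicate 3 (0.0873). MSMO1 was not called without A375 etoposide replicate 2 (0.0617), A375 etoposide replicate 3 (0.0639), SK-MEL-28 etoposide replicate 2 (0.0723) or SK-MEL-28 etoposide replicate 3 (0.0632). MVD was not called without A375 etoposide replicate 2 (0.0743), SK-MEL-28 etoposide replicate 1 (0.0771) or SK-MEL-28 etoposide replicate 2 (0.0507), and SQLE was not called without SK-MEL-28 etoposide replicate 3 (0.055). Calls were gained by ACSS2 without SK-MEL-28 etoposide replicate 3 (0.0253), IDI1 without SK-MEL-28 etoposide replicate 1 (0.0234), SCD without A375 etoposide replicate 1 (0.0446) and SCAP without A375 etoposide replicate 1 (0.0493) or SK-MEL-28 etoposide replicate 1 (0.039).

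**Figure D4:**
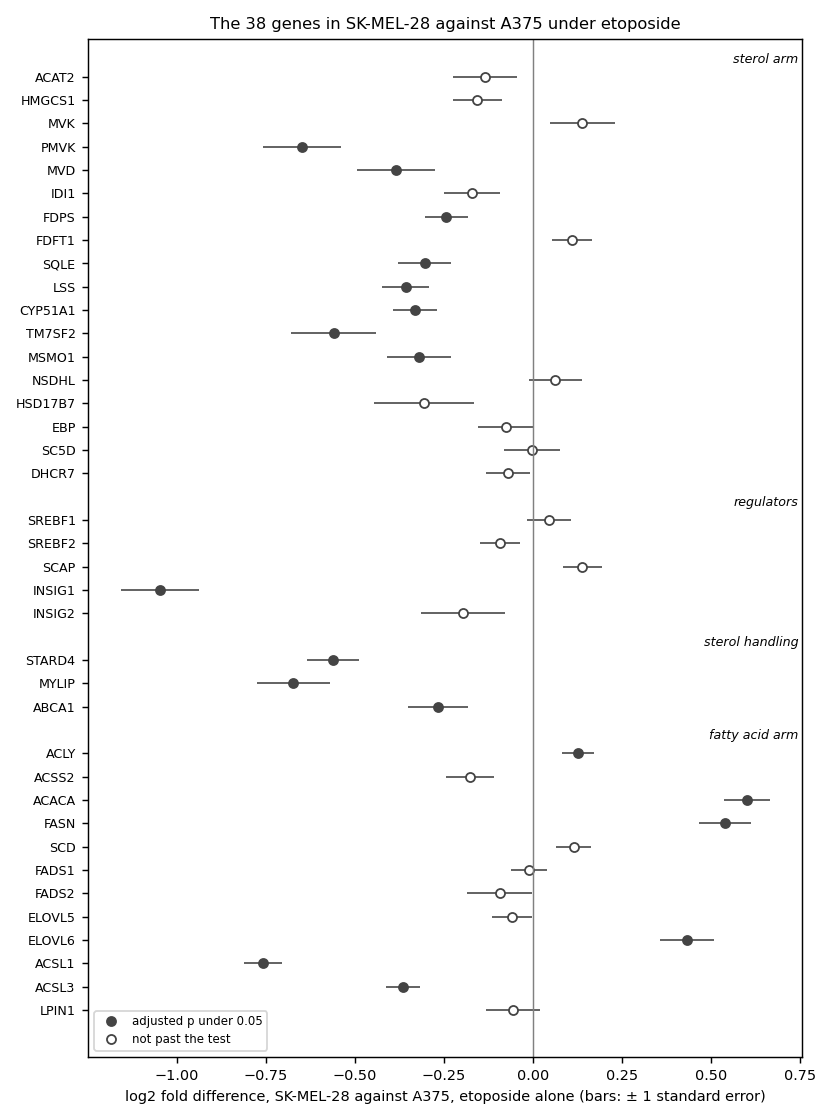
Log2 fold difference of each of the 38 genes, SK-MEL-28 against A375 under etoposide alone, with bars of 1 standard error and filled points for an adjusted p under 0.05 (n = 3 libraries a line). Filled points of the sterol arm all lie left of 0, INSIG1 lies farthest left at -1.05, and ACACA, FASN and ELOVL6 lie farthest right.

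Levels were compared between genes per kilobase of the canonical transcript. In A375 with etoposide, the sterol arm ranged from 3.83 CPM per kb for SC5D to 57.0 for FDPS, with a median of 12.9, and the fatty acid arm from 4.22 for ELOVL6 to 77.3 for ACLY, with a median of 28.2. In SK-MEL-28 with etoposide the medians were 10.9 and 21.2 CPM per kb, SC5D and ELOVL6 were again the lowest of their arms, and FDFT1 (52.9 CPM per kb) and ACLY (84.7) the highest. Among the regulators, SREBF1 was at 38.4 CPM per kb in A375 with etoposide, SREBF2 at 28.7, SCAP at 25.2, INSIG1 at 18.5 and INSIG2 at 2.89. With rapamycin in SK-MEL-28, SREBF1 (26.9 CPM per kb) was no longer above SREBF2 (28.4) and SCAP (28.7). A length other than the canonical one would shift these levels between genes but not a comparison of groups.

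**Figure D5:**
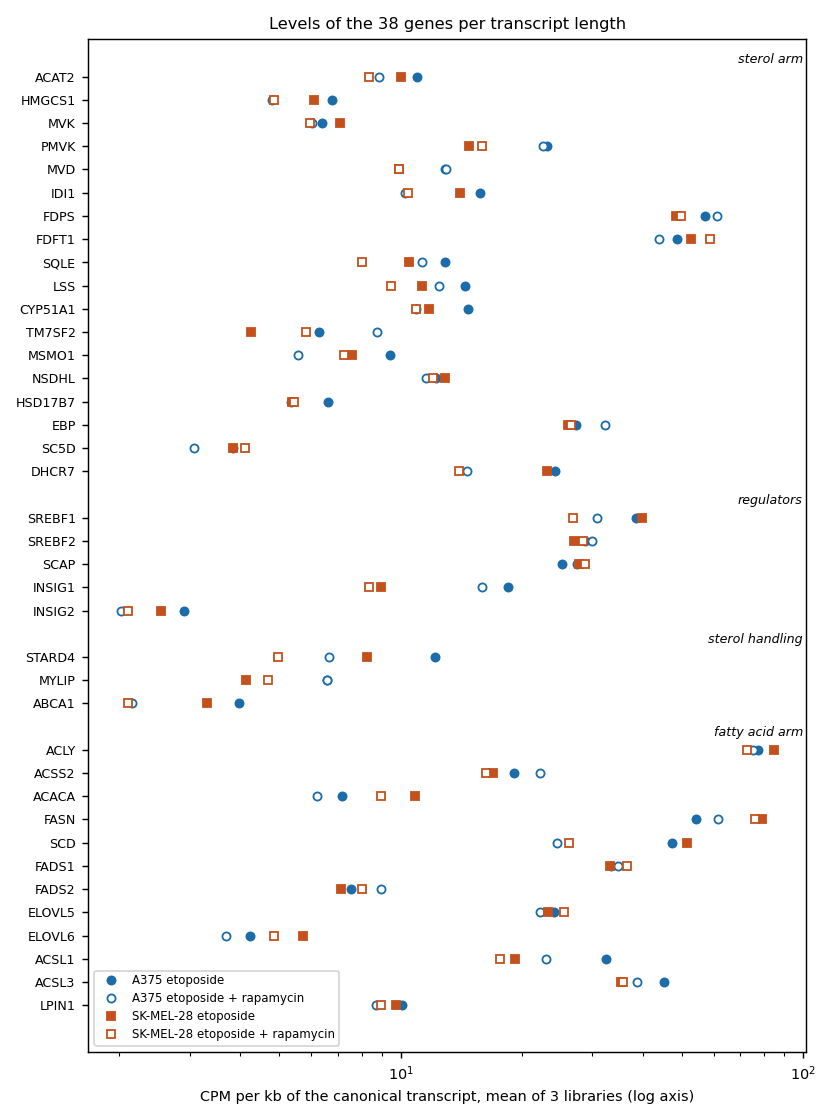
Mean level of each of the 38 genes in CPM per kb of its canonical transcript (log axis) in the 4 groups, circles for A375 and squares for SK-MEL-28, filled for etoposide and open for etoposide + rapamycin (mean of 3 libraries). ACLY and FASN lie among the farthest right in all groups and INSIG2 farthest left, with ABCA1 and SC5D the next lowest in level. The open symbols of SCD, STARD4 and ABCA1 lie well left of the filled ones.

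Genes around the pathway were read from lists that stand outside the 38. Their counts are to be read against the shares of all genes, 14.3% higher and 13.8% lower for A375 and 8.83% higher and 10.1% lower for SK-MEL-28. Of 10 genes of the machinery that moves and cuts these factors, 3 rose and 2 fell in A375 and 2 rose in SK-MEL-28, with median log2 fold changes of 0.045 and 0.12. Medians of the lists below are log2 fold changes in the same order of lines. TMEM97, a sterol-responsive membrane protein, rose in both lines (log2 fold change 0.36 ± 0.11 SE in A375, adjusted p = 0.0241, and 0.56 ± 0.10 SE in SK-MEL-28, adjusted p = 0.00185). RNF145, a ubiquitin ligase of sterol control, fell in A375 (log2 fold change -0.24 ± 0.045 SE, adjusted p = 0.00178). Of 12 genes of the isoprenoid branch, 1 fell in A375 and 2 in SK-MEL-28. GGPS1, which makes geranylgeranyl diphosphate, fell in A375 (log2 fold change -0.32 ± 0.082 SE, adjusted p = 0.0108), and FNTB, a farnesyltransferase subunit, fell in SK-MEL-28 (log2 fold change -0.45 ± 0.13 SE, adjusted p = 0.0233). Of 15 genes of sterol storage and transport, 3 rose and 4 fell in A375, and SK-MEL-28 had 4 lower, with medians of -0.10 and -0.12. The lipoprotein receptor VLDLR fell in both lines, with lower values than any of the 38 (log2 fold change -1.18 ± 0.10 SE in A375, adjusted p = 6.19e-06, and -1.76 ± 0.097 SE in SK-MEL-28, adjusted p = 1.66e-07), and the difference of its responses was -0.57 (adjusted p = 0.0252). The lysosomal lipase LIPA fell in both (log2 fold change -0.47 ± 0.072 SE in A375, adjusted p = 0.000418, and -0.49 ± 0.059 SE in SK-MEL-28, adjusted p = 8.38e-05), as did the lipid transfer protein OSBPL8 (log2 fold change -0.44 ± 0.060 SE in A375, adjusted p = 0.000216, and -0.21 ± 0.056 SE in SK-MEL-28, adjusted p = 0.02).

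The shares of all genes called were 28.1% for A375, 13.8% as lower, and 19.0% for SK-MEL-28, 10.1% as lower. Of 9 tested genes that supply carbon and NADPH, 2 rose and 3 fell in A375, and SK-MEL-28 had 2 lower, with medians of 0.017 and -0.12. ME1 (log2 fold change -0.89 ± 0.052 SE in A375, adjusted p = 3.67e-07, and -0.66 ± 0.061 SE in SK-MEL-28, adjusted p = 9.44e-06) and IDH1 (log2 fold change -0.71 ± 0.063 SE in A375, adjusted p = 7.56e-06, and -0.39 ± 0.055 SE in SK-MEL-28, adjusted p = 0.00027), which make NADPH in the cytosol, fell in both lines, and the mitochondrial acetyl-CoA synthetase ACSS1 fell in A375 (log2 fold change -0.26 ± 0.080 SE, adjusted p = 0.0264). Of the other acyl chain enzymes, 1 of 18 rose and 4 fell in A375 and 4 of 17 fell in SK-MEL-28, with medians of -0.12 and -0.15. ACSL4, ACSL5 and SCD5 are relatives of ACSL1 and SCD. ACSL4 fell in both lines (log2 fold change -0.50 ± 0.056 SE in A375, adjusted p = 4.62e-05, and -0.27 ± 0.058 SE in SK-MEL-28, adjusted p = 0.00639), ACSL5 in SK-MEL-28 (log2 fold change -0.65 ± 0.13 SE, adjusted p = 0.00304; A375 log2 fold change -0.61, adjusted p = 0.0536) and SCD5 in SK-MEL-28 (log2 fold change -0.57 ± 0.16 SE, adjusted p = 0.0232; A375 log2 fold change -0.15, adjusted p = 0.479). Of 17 genes of glycerolipid synthesis, 3 rose and 4 fell in A375 and 1 rose and 4 fell in SK-MEL-28, with medians of -0.0029 and 0.015. LPCAT3, a known target of the liver X receptors that loads polyunsaturated chains onto phospholipids, fell in both (log2 fold change -0.39 ± 0.082 SE in A375, adjusted p = 0.00357, and -0.56 ± 0.079 SE in SK-MEL-28, adjusted p = 0.000331). Of 2 acyltransferases of the path to triglyceride, GPAM fell in A375 (log2 fold change -0.37 ± 0.13 SE, adjusted p = 0.0441) and DGAT2 in SK-MEL-28 (log2 fold change -0.48 ± 0.15 SE, adjusted p = 0.0396). Fatty acid oxidation, which spends what the arm above makes, had 9 of 19 genes lower and 2 higher in A375, against 13.8% of all genes lower, and 9 lower and 1 higher in SK-MEL-28, against 10.1%, with medians of -0.16 and -0.18. ETFDH, which passes electrons from this route to ubiquinone, fell in both lines (log2 fold change -0.64 ± 0.11 SE in A375, adjusted p = 0.000918, and -0.38 ± 0.092 SE in SK-MEL-28, adjusted p = 0.0112) and ACADM, which oxidises medium chains, in A375 (log2 fold change -0.41 ± 0.076 SE, adjusted p = 0.00157).

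Beside these, 12 of 20 mitosis genes rose in A375, against 14.3% of all genes, and none fell, with MKI67, AURKB and CENPF at 1.08 (adjusted p = 3.48e-07), 0.92 (adjusted p = 0.000323) and 0.76 (adjusted p = 1.43e-05) on the log2 scale, while 1 rose and 4 fell in SK-MEL-28, against 8.83% and 10.1%. Among the melanocyte markers, 3 of 7 tested fell in A375 and 1 of 7 in SK-MEL-28: MITF fell in both lines (log2 fold change -0.51 ± 0.10 SE in A375, adjusted p = 0.00248, and -0.50 ± 0.097 SE in SK-MEL-28, adjusted p = 0.0032), and DCT and S100B fell in A375, at -1.70 (adjusted p = 0.0106) and -0.58 (adjusted p = 4.13e-05). Of 4 tested fibroblast markers, at a summed 13.4 to 39.4 CPM, 2 fell in A375 and 1 in SK-MEL-28, with LUM at -0.73 (adjusted p = 0.00502) and -0.66 (adjusted p = 0.000806) and DCN at -0.63 (adjusted p = 0.0172) in A375. The 1 epithelial marker tested did not pass for rapamycin in either line. The 1 leukocyte marker tested in SK-MEL-28 did not pass, and none was tested in A375. The part of these genes in the values of the 38 was not tested.

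The row of a gene can also hold reads of its neighbours, where exons overlap. How the counting treated shared exons, on either strand, is not stated. The overlaps below are those of GENCODE release 44. The authors counted on another annotation release, in which these overlaps were not checked. By exon position, another gene on the other strand covers 37.7% of the HMGCS1 exons, 18.6% of those of FDPS, 17.2% of those of ACAT2 (TCP1) and 15% of those of IDI1, and another gene on the same strand covers 68.2% of the CYP51A1 exons and 36.4% of those of EBP. DHCR7, ABCA1, SCD and MSMO1 have no such overlap in GENCODE release 44, and for STARD4 it is 2.18%.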

How the data were processed

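Total mRNA of 12 cultures was read, 3 libraries in each of 4 groups named from the sample labels. The authors mapped reads to GRCh38 with HISAT2 and assembled them with StringTie on an Ensembl annotation, and the deposited values are raw counts per gene and library. How coverage became counts, and whether strand was used, is not given in the sources used here. Of 58312 rows, 5 name no gene and hold 0.000991% to 0.00529% of a library's counts. They were left out. Totals of 28189501 to 32499337 counts limit precision for low genes, through counting error only.

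Each cell line was fitted alone in edgeR 4.0.16 (R 4.3.3): filterByExpr with a minimum count of 10, TMM factors, glmQLFit and glmQLFTest. An interaction was fitted over all 12 libraries and SK-MEL-28 against A375 over the 6 etoposide libraries. The standard error of a log2 fold change is its size over the square root of F. CPM uses TMM factors over 12 libraries, and log2 CPM a prior count of 2. The code was tested on simulated counts. DESeq2 1.42.0, which the authors used, other scalings and filters, a replicate block, arms drawn otherwise and each library left out were tried. Arms and lists are described by counts and medians, without a test.

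Values in every library are given for genes passing in both lines or in the interaction, the 5 regulators, and the 3 genes that differed most between the lines, and up to 3 genes are named from each list. Some genes of the lists are not reported here by name, and the isoprenoid list is given by its lower genes. MYLIP and INSIG1 come in by the last 2 of these rules. FASN was added after its values were seen. The 38 members and all lists were chosen with earlier results of these data known. Gene positions and transcript lengths are from GENCODE release 44, and promoters from RefSeq.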

Additional observations from a re-analysis of the deposited data

Results flagged for a closer look

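Rapamycin responses of 6 of the 38 genes differed between A375 and SK-MEL-28 by a test of the difference itself (edgeR's quasi-likelihood interaction test, Benjamini-Hochberg adjusted over 20101 genes, n = 3 libraries a group). The SK-MEL-28 log2 fold change lay above the A375 one by 0.31 for FDFT1 (adjusted p = 0.0142), 0.34 for CYP51A1 (0.0409), 0.70 for MSMO1 (0.021), 0.42 for SC5D (0.0463), 0.25 for ELOVL5 (0.0369) and 0.38 for ACSL1 (0.00857). ACSL1 passed without each library in turn, and each of the other 5 lost its call without at least 1 library.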

How the results depend on the processing

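Depth and 3 libraries a group left most log2 fold changes of these genes with an SE near 0.05 to 0.13, so values near 0 have no settled sign. Among the 20 genes given in every library by rule, those that changed sign were MYLIP in A375 (0.0019 with DESeq2, 0.0020 with RLE size factors, 0.0024 with genes of at least 1 count in any library, 0.0017 with a replicate block), the DHCR7 difference between the responses (-0.011, -0.0112 and -0.0063 under the first 3 of these, -0.0164 with at least 10 counts in every library, -0.0057 with rows of one name summed) and SC5D between the lines (0.0023 with DESeq2, 0.0023 with RLE size factors, 0.0010 with library totals, 7e-04 with at least 1 count in any library). None of these 3 passed. Of the other members, MVD, NSDHL, ACSL3, EBP and HSD17B7 also changed sign near 0 under at least 1 of these alternatives.

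With the fold change over 1.5 added, 6 genes passed in A375, 4 in SK-MEL-28, 1 in the difference of the responses (MSMO1) and 5 between the lines, 4 of them lower. Library totals without TMM moved the median of all genes to -0.050, the sterol median to -0.25 and the fatty acid median to -0.20 for A375. For SK-MEL-28 they moved the median of all genes to -0.029 and the sterol median to -0.12. DESeq2 added 3 genes with the lower response in SK-MEL-28 (SREBF1, ACLY and ACSS2), and a minimum of 10 counts in every library added 1 (ACSS2). CYP51A1, SC5D and ELOVL5 lost the difference of their responses with genes of at least 1 count in any library, which left 3 calls and tests 42867 genes in place of 20101. SC5D also lost it with RLE size factors (adjusted p = 0.0514) and with rows of one name summed (adjusted p = 0.0501). Without ACSL1, ACSL3 and LPIN1 the fatty acid median was -0.045 in A375, -0.063 for the difference of the responses and 0.11 between the lines, and the sterol median minus it was -0.16, 0.092 and -0.32. With sterol steps from FDFT1 on, the sterol median was 0.0021 for the difference of the responses and -0.31 between the lines, where the arms then differed by -0.27. The sterol median of the difference of the responses was 0.016 with DESeq2, 0.016 with RLE size factors and 0.011 with at least 10 counts in every library. The cause of these shifts was not tested.

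Libraries of one replicate number did not deviate together across groups (correlations from -0.05 to 0.037, with 2 of 9 highest for their own number), so the samples share only a number. With a replicate block, 3 genes rose and 16 fell in A375, 12 fell in SK-MEL-28, 3 differed in response and 4 were higher and 14 lower between the lines. LSS and ACACA, both among the 9 genes that fell in both lines, lost their A375 calls with this block (adjusted p = 0.0511 and 0.0519). They also lost them with genes of at least 1 count in any library (adjusted p = 0.0737 and 0.0936). Over the tool, scaling, filter, block and summing alternatives, 15 to 22 genes fell in A375, 11 to 13 fell in SK-MEL-28 and 12 to 15 were lower between the lines. From 2 to 4 rose in A375 and 0 to 3 in SK-MEL-28. The calls over all genes moved with these settings too. In A375 they were 5295 of 18844 in the main fit and 4480 of 18844 with the replicate block. With at least 1 count in any library they were 3856 of 39259, and with at least 10 counts in every library 5501 of 16804.

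Without 1 library at a time, the sterol median ran from -0.23 to -0.17 in A375, -0.11 to -0.061 in SK-MEL-28, 0.014 to 0.11 for the difference of the responses and -0.25 to -0.18 between the lines. The sterol median minus the fatty acid median ran from -0.093 to -0.027 in A375 and 0.034 to 0.13 for the difference of the responses. The number of genes whose response differed ran from 1 to 6, with 0 to 2 lower in SK-MEL-28. Among the same 20 genes, values with a changed sign, none of which passed, were MYLIP in A375 (-0.050 to 0.043), INSIG1 in SK-MEL-28 (-0.22 to 0.064, above 0 without etoposide replicate 3), SC5D (-0.064 to 0.052) and SREBF1 (-0.0017 to 0.096) between the lines, and the differences of the responses of DHCR7 (-0.064 to 0.049), LSS (-0.093 to 0.018), SCD (-0.053 to 0.019) and SREBF2 (-0.041 to 0.062). Of the other members, FADS1, FASN, ELOVL6, ACSL3, ACSS2, MVD, PMVK, EBP, NSDHL, HSD17B7 and TM7SF2 changed sign in at least 1 comparison. From 14 to 19 genes fell in A375, 11 to 12 fell in SK-MEL-28 and 11 to 14 were lower between the lines. Calls in either direction over all genes ran from 3886 to 5231 in A375 and from 2432 to 3103 in SK-MEL-28. They ran from 594 to 1315 for the difference of the responses and from 4885 to 5535 between the lines.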
